A study of Mus musculus with 4 samples.

Results

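Type I interferon-stimulated genes are the antiviral genes that cells switch on after alpha or beta interferon. The set described here holds 37 of them, chosen by name with earlier results of these data known. They were found on the array through the symbols of the platform annotation, with the brightest probe set taken for each gene. Of the 37, 35 could be measured, among 18193 genes in all. Ifi44 was not listed under a symbol of its own, and Isg15, a ubiquitin-like protein, was listed only on a probe set that it shares with another gene, so neither is given a value.

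The RNA came from melanoma allografts, tumours grown from the iNRAS-475 mouse melanoma cell line after injection into the skin of nude mice, whose drinking water held 2 mg/ml doxycycline so that the inducible NRAS oncogene stayed on. There were 4 groups with 1 array each: a control tumour still on doxycycline, and tumours taken 24, 48 and 72 h after doxycycline withdrawal, so all 4 tumours had grown on the drug. The labels used here give neither the promoter that drives NRAS, nor the host's age, nor whether animals were pooled. Nude mice lack a thymus and so most T cells, but keep macrophages, dendritic cells and natural killer cells. No condition was replicated, no p-value was computed, and animal, tumour piece and time cannot be told apart. The labelled tissue was checked on its markers: Sox10, a melanocyte and neural crest transcription factor, read 3771 in the control tumour and between 3613 and 4681 off doxycycline, whereas the pigment genes Tyr, Tyrp1 and Mlana read at most 25.2 on any array. Of the 10 lineage genes, Pmel, a pigment granule protein, was the furthest from the control at 72 h, reading 73.1, 49.8, 103 and 200 with a difference of 1.14 (scale given with the results), followed by Mitf, the melanocyte master factor, at 50.3, 56.5, 93.1 and 115, and Mc1r, the melanocortin receptor, at 82.8, 64.3, 65.0 and 65.0.

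Type I interferons bind a receptor made of IFNAR1 and IFNAR2, whose kinases JAK1 and TYK2 phosphorylate STAT2. A complex that holds STAT2 and IRF9 binds the interferon-stimulated response element in promoters. Gamma interferon uses another receptor and acts through another element, the gamma-activated site, and the genes that answer to each type of interferon overlap in part. In a tumour, both malignant cells and host cells can carry the response, and in a piece of whole tumour, fewer cells of a type and less RNA per cell cannot be told apart.

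Promoters of 4 genes that were 2-fold higher at 72 h are shown first, chosen because the response element can be read in them. Oasl2, Lgals3bp and Ifit2 differed more at 72 h than Oas1a and Rsad2 but have windows without a match to the response element and are not shown, nor is Rtp4. The sequences are the 250 bases upstream of the RefSeq gene start (GRCm38.p6), written on the gene's strand. Capitals mark matches to the response element, GAAANNGAAA or its reverse complement TTTCNNTTTC, and to the gamma-activated site, TTCNNNGAA, which is its own reverse complement. Ifit1 and Ifit3 each hold a pair of response element matches, and Oas1a an overlapping pair close to the start:

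Ifit3, chr19:34583279-34583528, plus strand: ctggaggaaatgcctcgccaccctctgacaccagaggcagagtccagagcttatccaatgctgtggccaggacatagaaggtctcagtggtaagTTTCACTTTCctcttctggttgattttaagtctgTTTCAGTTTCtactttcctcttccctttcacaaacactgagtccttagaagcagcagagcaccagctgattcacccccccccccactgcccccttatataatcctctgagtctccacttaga

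Ifit1, chr19:34640639-34640888, plus strand: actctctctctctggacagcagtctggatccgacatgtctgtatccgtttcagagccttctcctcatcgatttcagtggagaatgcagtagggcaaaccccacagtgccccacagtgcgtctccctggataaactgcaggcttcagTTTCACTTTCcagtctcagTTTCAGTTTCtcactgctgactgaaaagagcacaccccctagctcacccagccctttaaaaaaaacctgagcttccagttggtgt

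Oas1a, chr5:120907526-120907775, minus strand: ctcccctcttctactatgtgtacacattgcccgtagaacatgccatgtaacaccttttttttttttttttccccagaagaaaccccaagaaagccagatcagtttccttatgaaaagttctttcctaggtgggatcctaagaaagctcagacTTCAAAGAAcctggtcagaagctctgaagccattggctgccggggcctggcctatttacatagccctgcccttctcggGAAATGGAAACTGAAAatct

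Rsad2, the antiviral enzyme viperin, has 1 match to the response element. Irf1, a transcription factor induced by both kinds of interferon, is shown for its different time course, and has a gamma-activated site in the first of its windows:

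Rsad2, chr12:26456453-26456702, minus strand: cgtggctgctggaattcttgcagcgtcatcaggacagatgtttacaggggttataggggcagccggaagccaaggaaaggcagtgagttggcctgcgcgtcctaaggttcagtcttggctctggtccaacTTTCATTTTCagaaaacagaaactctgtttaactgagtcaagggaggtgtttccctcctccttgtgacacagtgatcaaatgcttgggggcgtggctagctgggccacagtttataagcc

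Irf1, chr11:53769764-53770013, plus strand: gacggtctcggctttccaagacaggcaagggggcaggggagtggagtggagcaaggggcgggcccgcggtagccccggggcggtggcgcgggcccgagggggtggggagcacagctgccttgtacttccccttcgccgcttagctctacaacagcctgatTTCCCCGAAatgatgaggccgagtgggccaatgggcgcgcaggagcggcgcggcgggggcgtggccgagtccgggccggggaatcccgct

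RefSeq windows of 300 bases, from 250 before to 50 after the start, were found for 27 of the 37 named genes. The response element was present in 11 of the 27 (40.7%), against 3.99% of all 27025 genes with a window. Among the measured genes with a window, it was found in 5 of the 11 that were 2-fold higher at 72 h and in 5 of the 14 that were not. The gamma-activated site was found in 7 of the 27 (25.9%), against 9.55% of all genes, and in 2 of the 11 and 5 of the 14. The motifs overlap each other in Bst2 and in none of the printed windows. A match is a description of the letters and was not tested for binding. Oasl2, Lgals3bp, Trim25, Parp12 and Irf7, all 2-fold higher at 72 h, had neither set of letters in the window.

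**Figure D1:**
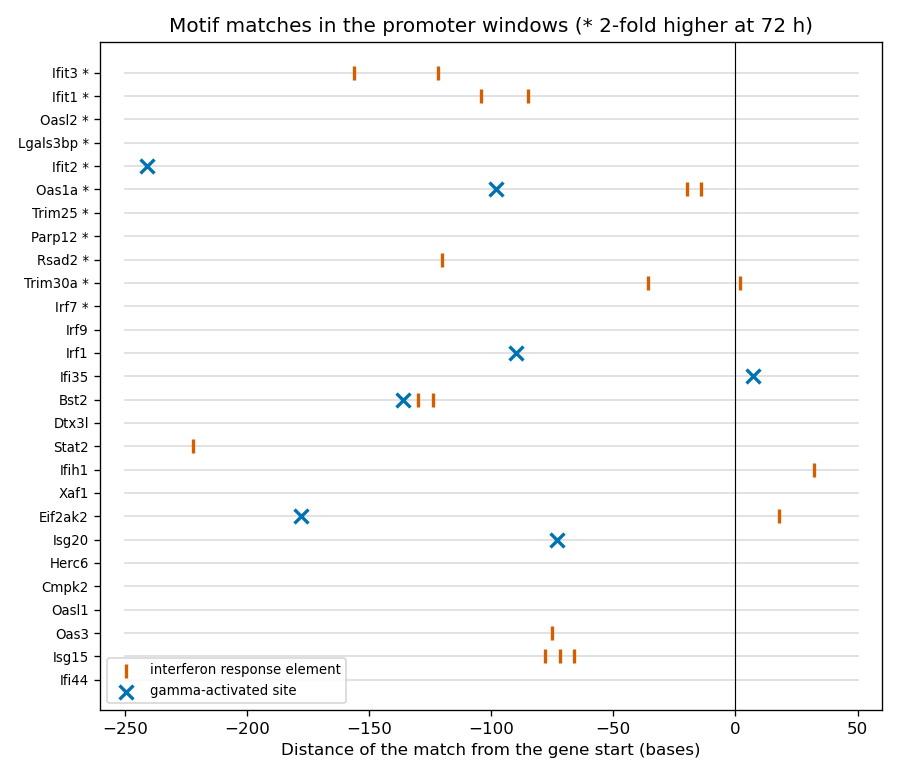
Positions of motif matches in the RefSeq promoter windows of 27 genes, in bases from the gene start (x axis), with 1 line per gene ordered by the 72 h difference and an asterisk for genes 2-fold higher at 72 h. Isg15 and Ifi44, which were not measured, stand at the bottom. Matches to the response element lie between -222 and 32 bases from the start, and 5 of the 11 asterisked genes hold one.

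The interferon-stimulated genes stood well above the control on the 72 h array and less far above it at 24 and 48 h. Differences are given as off minus on, on the scale log2(intensity + 32), which shrinks those of dim genes, and the words 2-fold higher or lower stand for a difference of at least 1 in size. At 72 h, 14 of the 35 genes passed upward, against 1.70% of all genes measured and 2.29% of those at or above the 40th percentile of level. Level is the mean over the 4 arrays, 72 h included. The set was chosen with earlier results of these data known, so its contrast with all genes is a description only. None of the 35 passed downward at 72 h (0 genes), against 1.21% of all genes. Neither of the earlier tumours had a gene of the set past the mark (0 in either direction). Of all genes, 0.198% passed upward and 0.0495% downward at 24 h, and 0.561% upward and 0.775% downward at 48 h. The median difference of the 35 genes was 0.17, 0.15 and 0.73 in the 24, 48 and 72 h tumours, and that of all genes was 0.00 at each time. At 72 h 33 genes lay above the control, 1 below it and 1 was equal, whereas 43.1% of all genes lay above it. At 24 and at 48 h 26 of the 35 lay above the control, against 44.2% and 42.5% of all genes. The 72 h array held the highest of the 4 intensities for 30 of the 35 genes, against 24.3% of all genes. Equal values count as neither above nor highest, which lowers these shares of all genes. Of all probe sets 48.0% had equal values on at least 2 arrays, whereas 2 of the 35 genes did.

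**Figure D2:**
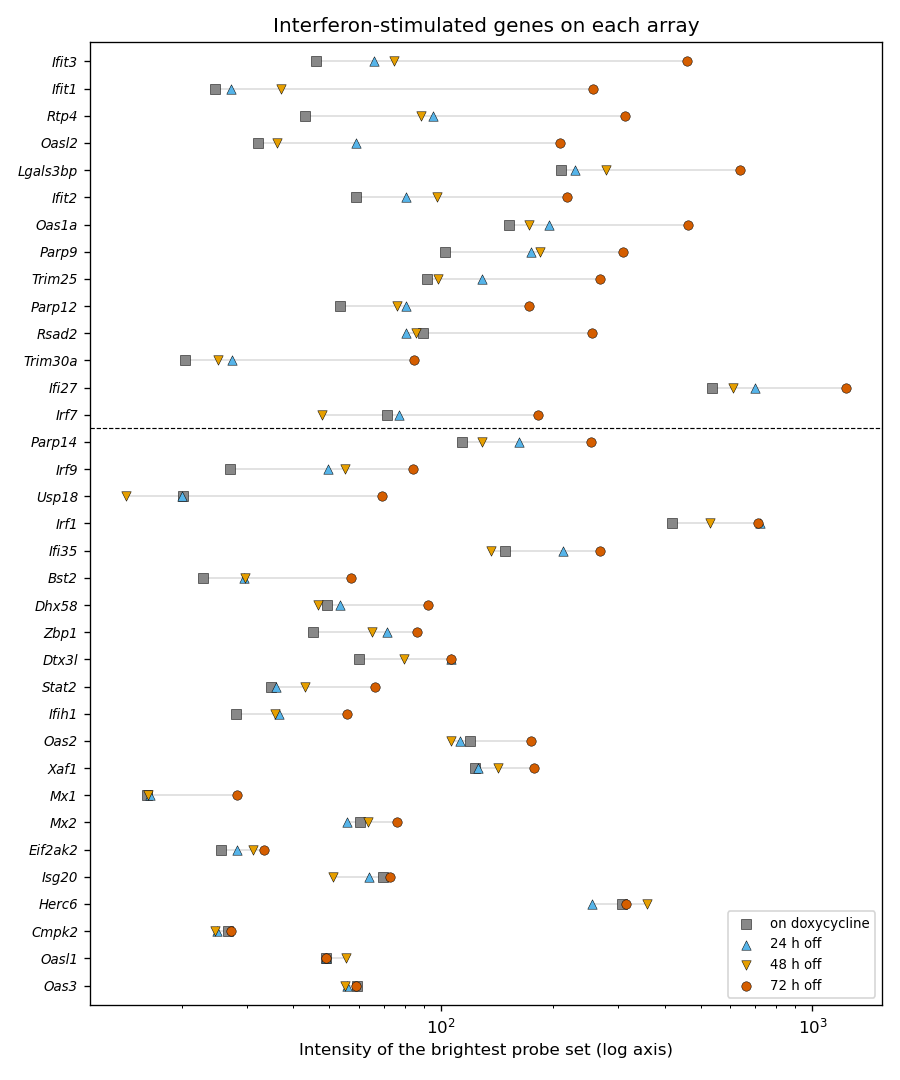
Intensity of the brightest probe set of each of the 35 genes on the 4 arrays (log axis), ordered by the difference between 72 h and control, with 1 symbol per array. For the 14 genes above the dashed line, 2-fold higher at 72 h, the 72 h point is the rightmost of the 4.

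The same 72 h array was also the highest for most markers of several other tissues. All 8 skeletal muscle genes were 2-fold higher there, with a median difference of 3.15, and their summed intensity over the arrays in time order, control first, was 297, 586, 272 and 4612. Of 9 fibroblast genes 6 were 2-fold higher, with a median of 1.68 and summed intensities of 17922, 18813, 35763 and 63546. Of these 9 genes 7 lay above the control at 72 h, and the others lay below it. The 10 endothelial genes were all highest at 72 h, with a median of 0.41. Of 5 adipocyte genes 2 were 2-fold higher and 3 lay above the control at 72 h, and the summed intensity of the 5 was 398, 202, 505 and 1721. Of 18 macrophage genes 8 were 2-fold higher, with a median of 0.97, among them Cybb, a subunit of the phagocyte oxidase, which read 61.4, 248, 204 and 334, and the lysozyme gene Lyz2, which read 1641, 3511, 2923 and 5858. Of the 18 macrophage genes 16 lay above the control at 72 h, and 14 were highest there. Among all genes 1.70% were 2-fold higher and 43.1% lay above the control at that time. The part of these tissue markers in the interferon-stimulated gene values was not tested. Summed over their genes, the macrophage markers read 7746, 13184, 10352 and 18748 on the 4 arrays. The 35 interferon-stimulated genes summed to 3354, 4312, 3977 and 7922. Both sums, like that of the muscle genes, were higher at 24 h than at 48 h and highest at 72 h. Bright genes such as Irf1 weigh most in a sum, and the medians of the 35 genes at 24 and 48 h were 0.17 and 0.15. Medians at 24 and 48 h were 0.62 and 0.24 for the macrophage genes, 0.00 and -0.06 for the muscle genes, -0.07 and 0.00 for the endothelial genes and 0.09 and 0.83 for the fibroblast genes.

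Markers of dendritic, lymphoid and neutrophil cells had medians near the control at 72 h. Median differences were 0.00 for 10 dendritic and 13 lymphoid and natural killer cell genes and -0.02 for 8 neutrophil genes. Itgax, the integrin chain CD11c of dendritic cells and some macrophages, was the furthest from the control of the dendritic genes at 72 h, at 0.58, and read 38.5, 81.1, 72.6 and 73.4. Siglech, a gene of plasmacytoid dendritic cells, was dim and read 15.9 at 72 h and 23.2 on each other array, a difference of -0.21, and Flt3, a growth factor receptor, was at 0.14. Ptprc, the leukocyte antigen CD45, was the exception in the lymphoid list, at 24.6, 92.3, 71.6 and 114, and macrophages express it too. The lists' summed intensities ranged from 475 to 527 for dendritic genes, from 592 to 659 for lymphoid genes and from 319 to 324 for neutrophil genes. Single genes read between 14.2 and 146, 20.4 and 137, and 17.8 and 77.8 in these lists, in that order. Several were dim or had equal values on several arrays, so medians near the control cannot show that these cells were unchanged.

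The IFIT family, which binds foreign RNA and blocks its translation, held the 2 genes furthest above the control. The intensity of Ifit3 was 46.0 in the control tumour and 65.7, 74.7 and 460.2 in the 24, 48 and 72 h tumours, the order used for all genes below. Its 72 h value was thus far from the other 3, which lay close together, and the difference of 2.66 ranked 19th among all genes measured. Ifit1 read 24.6, 27.1, 37.0 and 257, a difference of 2.35 at 72 h and of 0.29 at 48 h. Ifit2, which has the same fold of tetratricopeptide repeats, read 59.0, 80.6, 97.3 and 218, with differences of 0.31, 0.51 and 1.46. Ifit2 and Ifit3 are direct neighbours on chromosome 19, in a cluster that Ifit1 shares, and each of these genes was measured by a single probe set.

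The OAS family was split, with Oasl2 and Oas1a well above the control at 72 h and the others not. The oligoadenylate synthetases make a second messenger that activates the RNA-degrading enzyme RNase L, and the OAS-like proteins share their fold. Oasl2 read 32.04, 59.1, 36.2 and 208, a difference of 1.91 at 72 h. Oas1a read 152, 195, 172 and 461, a difference of 1.42. The paralogs of Oas1a are close in sequence, so signal shared between them cannot be separated here. Oas2 read 120, 112, 106 and 175, below the 2-fold mark with 0.45. Oas3 was flat, with 59.3, 55.8, 54.9 and 59.0, as was Oasl1, with 48.8 on 3 arrays and 55.5 at 48 h. Oasl1 and Oasl2 are direct neighbours on chromosome 5, and so are Oas2 and Oas3.

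The Mx GTPases, which trap viral nucleocapsids, were not 2-fold higher. Mx1 read 16.1, 16.4, 16.3 and 28.2; it was the dimmest of the 35 genes, the only one under the 40th percentile of level, and its difference of 0.32 is therefore strongly shrunk. Mx2 read 60.4, 55.8, 63.5 and 76.2, a difference of 0.23. Many laboratory mouse strains carry defective Mx genes, and the labels give no strain beyond nude mice.

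Genes that attach or remove ISG15 included 1 that passed the 2-fold mark. Trim25, a ubiquitin ligase that acts on the RNA sensor RIG-I, read 91.4, 129, 98.0 and 267, a difference of 1.28 at 72 h. Another of its probe sets was at 1.16 and a dim one at -0.03. Usp18, the protease that removes ISG15 and also damps the receptor, read 20.1, 20.1, 14.1 and 69.3. Its difference of 0.96 lay just under the mark, and the ratio of the 72 h to the control intensity was 3.44. Herc6, the ligase that joins ISG15 to proteins in the mouse, showed no such pattern: it read 307, 255, 359 and 314, and its dimmer probe sets lay between 0.00 and 0.34 at 72 h.

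The transcription factors of the response differed in their time course. Irf7, the factor that amplifies alpha interferon transcription, read 71.2, 76.8, 47.8 and 183, so it was lowest at 48 h and highest at 72 h, with a difference of 1.06, the smallest of the 14 called. Irf9 read 27.0, 49.7, 55.2 and 83.8, with differences of 0.47, 0.56 and 0.97, and was above the control on each off array. Stat2, its partner, read 34.8, 35.9, 43.0 and 66.5, a difference of 0.56 at 72 h and of 0.36 on its other probe set. Irf1 alone among these was as high at 24 h as at 72 h, reading 418, 724, 529 and 714, with differences of 0.75, 0.32 and 0.73.

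The sensors of foreign nucleic acid stayed under the 2-fold mark at 72 h, although all 4 lay above the control. Dhx58, which encodes LGP2, and Ifih1, which encodes the RNA sensor MDA5, had differences of 0.61 and 0.54, with intensities of 49.2 and 28.1 on the control array and 92.1 and 55.6 at 72 h. Other Dhx58 probe sets were at 0.06 and 0.00. Zbp1, a sensor of Z-form nucleic acid, read 45.3, 71.6, 65.2 and 86.0, a difference of 0.61 at 72 h and of 0.42 at 24 h. Its other probe set was at 0.09 at 72 h. Eif2ak2, the kinase PKR, was at 0.18, and its 3 probe sets lay between 0.00 and 0.33.

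The PARP genes and Dtx3l were above the control on every off array, with medians of 0.50, 0.31 and 1.12 at 24, 48 and 72 h over the 4 genes. Parp9, which works as a complex with the ubiquitin ligase DTX3L, read 103, 175, 184 and 309, with differences of 0.62, 0.68 and 1.34. Parp12 read 53.4, 80.2, 75.9 and 172, a difference of 1.26 at 72 h. Parp14 read 114, 162, 129 and 254, just under the mark at 0.97, and its dimmer probe set was at 0.12. Dtx3l read 59.99, 106, 79.2 and 106, so its 24 h and 72 h values were equal, and its other probe set was at 0.35, 0.30 and 0.60. Parp9, Dtx3l and Parp14 lie next to each other on chromosome 16 and differed at 72 h by 1.34, 0.59 and 0.97.

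Of the 10 other effectors measured, 5 were 2-fold higher at 72 h. Rtp4, a receptor transporter protein with antiviral activity, read 43.0, 94.8, 88.2 and 313; it had the highest 24 h difference of the 35 genes, 0.76, and reached 2.20 at 72 h. Lgals3bp, a secreted glycoprotein that binds galectins, read 210.0, 229, 277 and 638, a difference of 1.47. Rsad2 read 89.3, 80.5, 85.7 and 255, with the first 3 arrays close together and a difference of 1.24. Trim30a, a ubiquitin ligase that restrains inflammatory signalling, read 20.4, 27.3, 25.1 and 84.7, a difference of 1.16. Ifi27 read 536, 702, 609 and 1231, a difference of 1.15.

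For 4 of these genes the value rests on the brightest probe set. Other probe sets of Rsad2 were at 0.05 and 0.31 at 72 h, that of Trim30a at 0.06, that of Rtp4 at 0.05 and that of Ifi27 at 0.44. That of Trim30a read 28.6, 31.1, 31.1 and 31.1, brighter than the chosen probe set on every array but that of 72 h. The choice for Trim30a thus rests on the 72 h value of the chosen probe set. The Rtp4 probe set that differs is very dim, with intensities from 11.7 to 14.3, but that of Ifi27 is bright, at 483, 498, 519 and 667. The chosen Ifi27 and Trim25 probe sets, at 1.15 and 1.28, are of the kind, ending in _s_at, whose probes can match more than 1 gene. Xaf1, a partner of the apoptosis inhibitor XIAP, went the other way: its brightest probe set was at 0.43 and a dimmer one, which read 28.3, 32.1, 32.1 and 111, was at 1.24. In all, 9 of the 14 called genes had 1 probe set.

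The remaining effectors were under the 2-fold mark. Bst2, which encodes tetherin, a protein that holds budding virus at the cell surface, read 22.8, 29.5, 29.6 and 57.0, a difference of 0.70. Ifi35 read 149, 213, 137 and 268, with differences of 0.44, -0.10 and 0.73 and of 0.60 and 0.28 at 72 h on its other probe sets. Isg20, an exonuclease, and Cmpk2, a nucleotide kinase of mitochondria, were near the control at 72 h, at 0.05 and 0.01. Cmpk2 and Rsad2 are direct neighbours on chromosome 12, but the Cmpk2 probe sets were dim, with the brightest between 24.6 and 27.1.

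**Figure D3:**
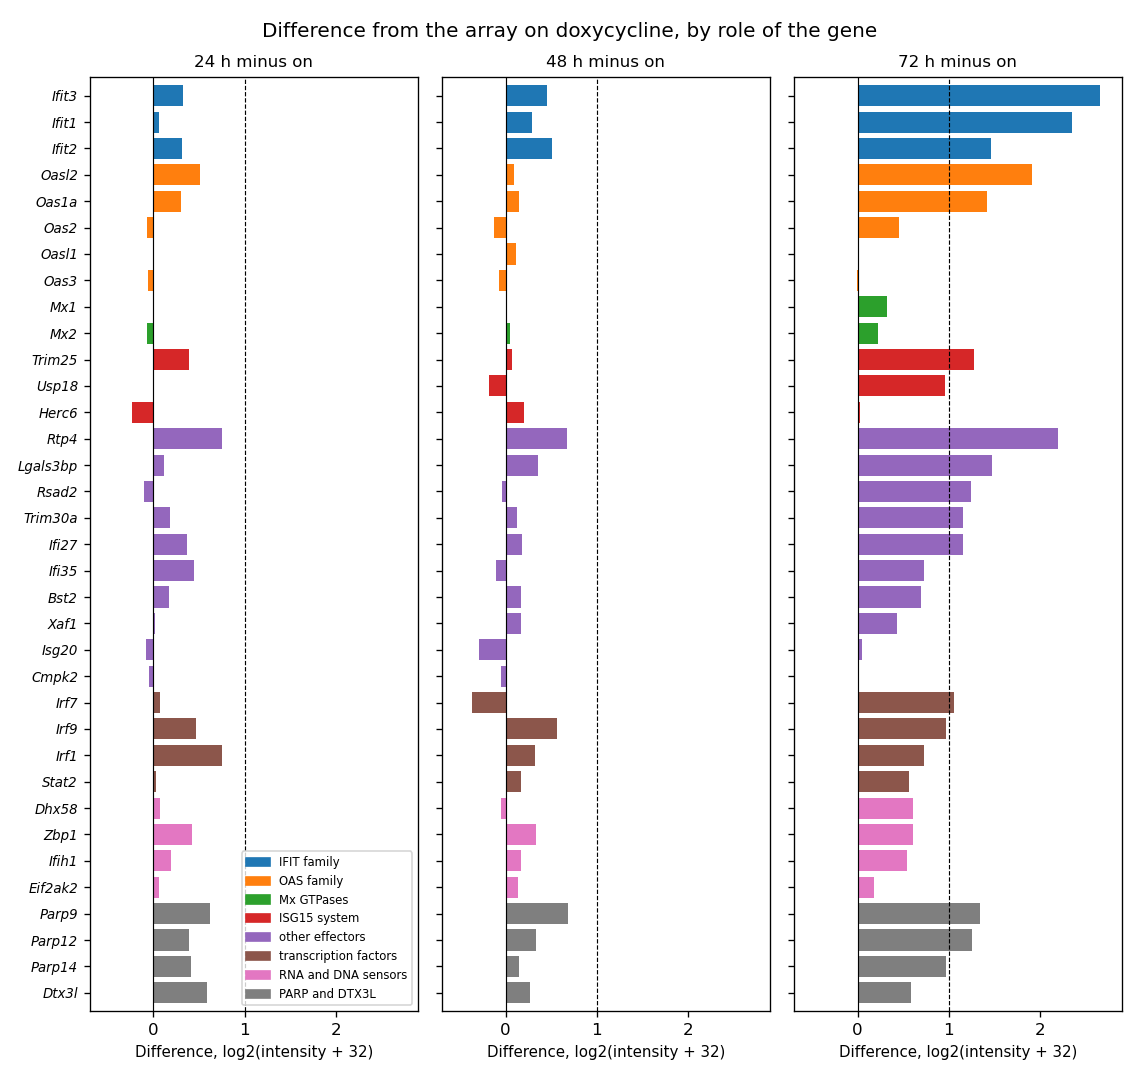
Difference of each of the 35 genes from the control array at 24, 48 and 72 h, on the scale log2(intensity + 32), as bars coloured by the role of the gene; the dashed line marks a difference of 1. No bar reaches it at 24 or 48 h, and 14 bars do at 72 h, with Ifit3 the longest at 2.66.

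Around the 2-fold mark at 72 h the values ran without a gap. The called genes nearest to it were Irf7 at 1.06, Ifi27 at 1.15 and Trim30a at 1.16, and just outside lay Parp14 and Irf9, both at 0.97, and Usp18 at 0.96. The count of 14 was 7 with a pseudocount 4 times as large, which shrinks differences further, against 0.923% of all genes, and 18 with none, against 2.80%. With the mean over probe sets it was 10, against 1.06%. The 21 genes that were not called had a median of 0.54 at 72 h and lay between 0.00 and 0.97.

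The 72 h tumour also stood above the others when the control was left out. Set against the 24 h tumour, 8 of the 35 genes passed upward and 0 downward at 72 h, against 1.47% and 1.37% of all genes. The 8 were Ifit3 (2.33), Ifit1 (2.29), Rtp4 (1.44), Oasl2 (1.40), Lgals3bp (1.36), Rsad2 (1.35), Ifit2 (1.15) and Oas1a (1.12), and the median over the 35 was 0.54. Set against the 48 h tumour, 11 passed upward and 0 downward, against 0.682% and 0.159% of all genes, with a median of 0.66. Trim25, Usp18, Irf7 and Trim30a were among these 11, whereas Ifit2, at 0.95, was not. From 24 to 48 h the median was -0.02, and 0 genes were called in either direction, against 0.423% higher and 0.748% lower among all genes. All of these comparisons with 72 h share the 1 array of that time.

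**Figure D4:**
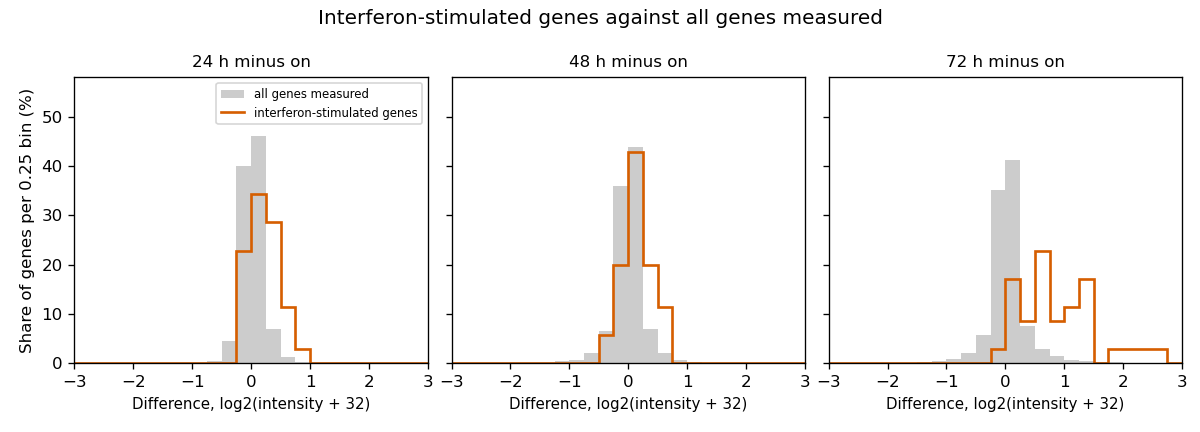
Share of genes (y axis, in percent) in each bin of 0.25 of the difference from control (x axis, log2(intensity + 32)) at 24, 48 and 72 h; grey areas are all 18193 genes measured and the orange outline the 35 interferon-stimulated genes. At 72 h the outline is moved to the right of the grey area, with a median of 0.73 against 0.00. It is also moved to the right, less far, at 24 and 48 h, where 42.9% and 31.4% of the 35 genes lie at 0.25 or above, against 8.63% and 10.3% of all genes.

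The genes of the interferons themselves did not pass the mark at any time. Of 19 ligand genes 10 were measured, 0 were 2-fold different, and their median differences were -0.08, -0.01 and -0.04 at 24, 48 and 72 h. Ifnb1, which encodes beta interferon, read 40.3, 34.3, 38.0 and 39.0, and Ifng, which encodes gamma interferon, 10.9, 12.8, 10.4 and 11.5. The greatest 72 h differences in this list were those of Ifna5 (-0.20), Ifnz (0.16, after 0.52 at 48 h) and Ifna11 (-0.06). These probe sets were mostly dim, and the file gives no call of presence, so a low transcript level could not be told from none.

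The receptor and its kinases showed small differences. The list measured holds 9 genes: receptor chains for both types of interferon, their kinases, and Stat2 and Irf9, which are also in the set of 35. Of the 9, 8 were above the control tumour at 72 h, against 43.1% of all genes. The median was 0.39 and 0 passed the mark, against 1.70% of all genes upward, with Irf9 the highest at 0.97. Jak1 read 400, 441, 571 and 662 over the 4 arrays, a difference of 0.68 at 72 h, and Tyk2 was at 0.44, 0.50 and 0.49. Ifnar1 and Ifnar2, the receptor chains, were at 0.09 and 0.16 at 72 h. Among 18 sensors and adaptors, 4 of which are also in the set of 35, only Ddx58, which encodes RIG-I, was 2-fold higher at 72 h, at 1.20, while Tbk1, the kinase that activates IRF3 and IRF7, was at 0.91 and the median at 0.15. Of 13 negative regulators 0 were called and the median was 0.12 at 72 h. Socs3 and Socs1, which block JAK kinases, lay below the control at -0.92 and -0.69, with Socs3 at 432, 440.0, 221 and 214, and Usp18 was the highest of the list at 0.96.

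Of 37 further interferon-stimulated genes outside the set, 5 were past the mark at 72 h, against 1.70% of all genes. Of the 37, 30 read above the control tumour, against 43.1% of all genes, and the median was 0.19. Ly6e, a membrane protein that modulates virus entry, read 129, 172, 162 and 575, a difference of 1.91. Ifi44l read 11.9, 13.1, 13.4 and 87.6, a difference of 1.44, and Slfn5, of the Schlafen family, was at 1.22. The other 2 called were Samd9l at 1.15 and Irgm2 at 1.13, both named after their values were seen. At 24 h Irgm2 was the only one of the 37 called, at 1.39.

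Genes led by gamma interferon had another time course in their medians. The 14 measured had medians of 1.02, 0.40 and 0.77 at 24, 48 and 72 h, and 8, 4 and 4 of them were 2-fold higher. Among all genes 0.198%, 0.561% and 1.70% were 2-fold higher at these times. Iigp1, an immunity-related GTPase, had differences of 2.71, 0.98 and 1.64, and the MHC class II invariant chain Cd74 had 2.63, 1.08 and 1.25. Irgm1, another such GTPase, had 1.84, 1.35 and 1.58. The difference of the 14 genes between 72 and 24 h had a median of -0.55, where the 35 interferon-stimulated genes had a median of 0.54. In that comparison 0 of the 14 were 2-fold higher, against 1.47% of all genes. MHC class I and immunoproteasome genes (10 measured) had medians of 0.76, 0.56 and 0.68. Not every gene followed its list. Of the 14 gamma interferon-led genes 3 were highest at 72 h, among them Irf8 at 0.50, 0.37 and 0.93. Irf1 and Dtx3l, in the set of 35, were as high at 24 h as at 72 h. The difference between the lists was not tested.

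**Figure D5:**
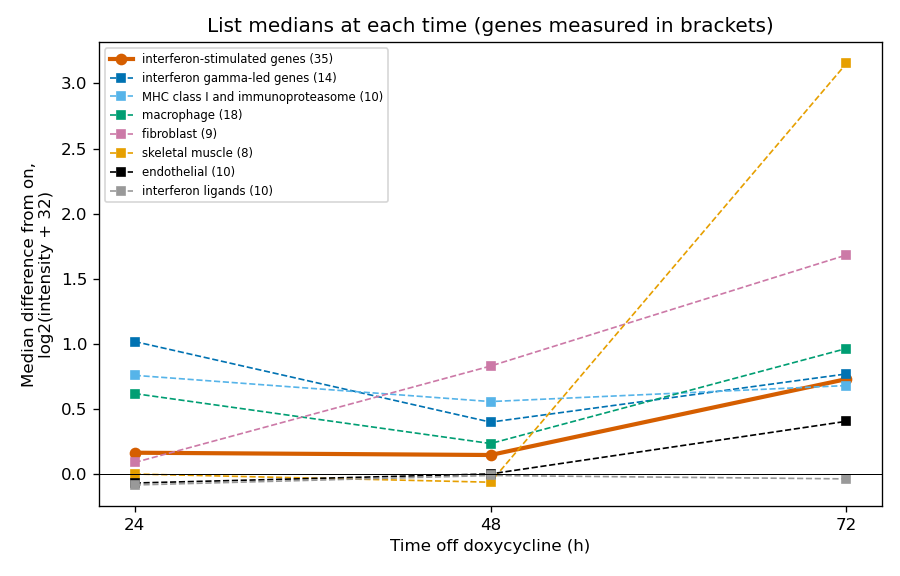
Median difference from the control array, on the scale log2(intensity + 32), of 8 gene lists at 24, 48 and 72 h off doxycycline, with the number of genes measured in brackets; lines join values from different tumours. Interferon-stimulated genes go from 0.17 and 0.15 to 0.73, gamma interferon-led genes start at 1.02, and skeletal muscle genes reach 3.15 at 72 h.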

How the data were processed

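Biotin-labelled cRNA from 4 tumours was hybridised to Affymetrix arrays, 1 array per group, and grouped by the treatment in the labels. The values deposited by the authors are linear intensities, 1 for each probe set on each array. MAS5 and RMA appear in the submitters' processing notes without a version or role; which of them was used, and the scaling, are not stated. Median intensity lay between 33.3 and 34.0. Of 45037 probe sets 34945 had a single symbol in the platform annotation and were used, 932 had several and 9160 none. Of all probe sets 48.0% had equal values on at least 2 arrays, and 2 of the 35 genes here did (Oasl1 and Dtx3l); the origin of these ties is unknown.

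The brightest probe set by mean over the arrays stood for a gene. That mean includes the 72 h array, so a high 72 h value takes part in the choice. Differences of log2(intensity + 32) were taken between arrays with no further normalization, no filter on low levels and no test, since each group had 1 array, whose number limits the precision. Alternatives were pseudocounts of 8, of 4 times 32 and, added after seeing the data, none; quantile normalization; median centring; level filters at the 40th and 60th percentiles; the mean over probe sets; and leaving out probe sets ending in _x_at or _s_at. The difference step was run on simulated data, copies of the control array without noise and with planted differences. That run checks the arithmetic only and says nothing about the precision of single arrays. All members with a call at any time are named with their values, and of other lists up to 3 genes by size at 72 h; further pathway genes and the melanocyte genes Sox10, Tyr, Tyrp1 and Mlana were named outside this rule after their values were seen. The members and lists were chosen with earlier results of these data known. Python 3.11.15, pandas 2.3.3, NumPy 2.4.6 and matplotlib 3.10.9 were used.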

Additional observations from a re-analysis of the deposited data

Results flagged for a closer look

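Among the 14 genes 2-fold higher at 72 h, 2 lay on the other side of the control at an earlier time; these differences between times were not tested. Rsad2 was at -0.11 at 24 h and -0.043 at 48 h, against 1.24 at 72 h. Irf7 was at -0.37 at 48 h, against 1.06 at 72 h.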

How the results depend on the processing

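Counts and medians of the 35 genes stayed within 1.5 times their values under several settings. These were quantile normalization, median centring, the level filter at the 40th percentile and leaving out _x_at and _s_at probe sets. The check covers each time against the control, and 72 h against 24 and 48 h. It leaves out the median from 24 to 48 h, which was -0.020 for the 35 genes and -0.037 for those passing that filter. With a pseudocount 4 times as large the count of 2-fold higher genes was 7 at 72 h against the control, 3 against 24 h and 4 against 48 h (0.923%, 0.813% and 0.363% of all genes), and the medians were 0.065 at 24 h, 0.069 at 48 h, 0.45 at 72 h, 0.28 from 24 to 72 h and 0.37 from 48 to 72 h. With a pseudocount of 8 the count was 1 at 24 h (Rtp4) and 13 from 24 to 72 h (0.291% and 1.93% of all genes), and the 24 h median was 0.28. With no pseudocount the counts were 1 at 24 h (Rtp4), 2 at 48 h (Rtp4 and Irf9) and 13 from 24 to 72 h (0.374%, 1.03% and 2.19% of all genes), and the medians were 0.36 at 24 h and 1.16 at 72 h. The mean over probe sets gave 10 at 72 h against the control, 6 from 24 to 72 h and 7 from 48 to 72 h (1.06%, 1.05% and 0.456% of all genes). Under it 4 of the 14 called genes, Rsad2, Trim30a, Trim25 and Ifi27, fell below the mark. The level filters use the mean over all arrays, so a gene can pass through its 72 h value alone. Ifit1, which read 24.6, 27.1 and 37.0 on the other arrays, passed the 60th percentile in this way. Usp18, which read 20.1, 20.1 and 14.1 on the other arrays, so passed the 40th percentile, an intensity of 24.9. The 60th percentile filter is the one described next. It kept 27 of the genes and gave a 24 h median of 0.31. The pseudocount sets how far the differences of dim genes shrink. What lay behind the shifts under the other settings was not tested. No gene changed direction among the 14 called, and 6 of them stayed past the mark under every setting that held them. No paired analysis was possible because each group had 1 array. With 1 array a time and no call of presence, dim genes such as Mx1 and Cmpk2 carry little information.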
